A study of Homo sapiens with 12 samples.

Results

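The genes described here encode the machinery that copies DNA in S phase and the regulators that start it at the G1/S transition. They are 57 genes, listed by function: origin licensing factors, the MCM helicase and its activators, DNA polymerases and primase, the sliding clamp and its loader, single-strand binding and Okazaki fragment enzymes, nucleotide synthesis enzymes, cyclins and E2F factors, and S-phase chromatin factors. All 57 were found among the 54261 gene symbols of the deposited count table, and 56 of them were among the 17572 genes with enough reads to test. The exception was E2F2, a transcription factor of the G1/S switch, with 2 to 32 counts per library. RNA-seq libraries are labelled as SW480 and DLD1, established cell lines derived from human colorectal adenocarcinomas, grown without or with lactate. The 4 groups are SW480 control, SW480 with lactate, DLD1 control and DLD1 with lactate, with 3 libraries each. The labels name no genetic change in any group and give neither the dose nor the duration of the lactate treatment. The submitters call the libraries of a group biological replicates, and each line stands for 1 model of the disease. Library totals ran from 12302311 to 22662063 counts, and levels are given as CPM, the counts of a gene scaled to a common library total.

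DNA replication is prepared in G1, when the origin recognition complex, CDC6 and CDT1 load the MCM2 to MCM7 helicase onto origins. At the G1/S transition, cyclin-dependent kinases and CDC7 let CDC45 and the GINS complex join the helicase, which then unwinds DNA for the polymerases. Many of these genes are transcribed by E2F factors once cyclin D and cyclin E kinases have inactivated the retinoblastoma protein, so their transcripts are commonly read as a mark of cycling cells. In bulk RNA, fewer cells in S phase and less RNA of these genes per cell cannot be told apart.

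Before the results, the labels and the libraries were checked. In the libraries labelled SW480, 7 of 10 colon epithelial markers were under 2 CPM in every library. The adhesion molecule EPCAM was at 0.356 to 1.14 CPM, the cadherin CDH1 at 1.19 to 1.54 CPM, and the keratin KRT20 had no counts, whereas the keratin KRT8 stood at 826 to 1410 CPM. DLD1 libraries had EPCAM at 656 to 716 CPM and CDH1 at 637 to 911 CPM. Summed over the 10 markers, levels ran from 1949 to 2298 CPM in SW480 controls, 1400 to 1665 CPM in SW480 with lactate, 6480 to 9522 CPM in DLD1 controls and 9478 to 10516 CPM in DLD1 with lactate. The 6 fibroblast and endothelial markers summed to 100.1 to 110.2 CPM in SW480 controls, 106 to 124 CPM in SW480 with lactate and 4.02 to 7.68 CPM in DLD1, and nearly all of the SW480 sum was the proteoglycan gene DCN and the collagen gene COL1A1. The 5 leukocyte markers summed to at most 6.92 CPM in any library. For the libraries labelled SW480 these levels leave the identity of the cells in doubt, and SW480 below means only the libraries labelled so. DLD1 controls 2 and 3 deviated most along the GC content of transcripts. Their deviations from the other controls had rank correlations of -0.79 and 0.82 with GC content over tested genes of known GC content and mean log2 CPM of at least 1. Over the 56 tested replication genes the correlations were -0.89 and 0.93. Lactate libraries deviated from the others of their group too. Over the same tested genes, SW480 lactate 1, 2 and 3 had 0.49, 0.35 and -0.61, and DLD1 lactate 1, 2 and 3 had 0.16, -0.51 and 0.46. Each library was set against the mean of the others in its group of 3, so these deviations are not independent. A trend in 1 library can give the others the opposite sign. As a description of these libraries, DLD1 control 2 was the highest control for 22 of the 28 replication genes of lower GC content, and control 3 was the highest for 20 of the 28 of higher GC content.

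Promoters of replication genes often carry E2F letters, and 4 are shown because these genes fell with lactate in SW480 and hold such letters within 250 bases before the start site. They were taken in the order of p in SW480. CDC6, GINS3, CDC45 and FEN1 came before MCM7 in that order but were passed over, since they hold no such letters. MCM4 and RPA2 were passed over for want of an entry. Sequences come from RefSeq (GRCh38.p14), with the first start site listed for each gene, and capitals mark the letters found. The letters searched were TTTCCCGC, TTTGGCGC, TTTGCCGC and TTTCGCGC on both strands, so that GCGGGAAA is a match of the first on the other strand. The 4 words differ only in their middle letters, and matches on the 2 strands can overlap.
MCM3, chr6:52284743-52284992, minus strand: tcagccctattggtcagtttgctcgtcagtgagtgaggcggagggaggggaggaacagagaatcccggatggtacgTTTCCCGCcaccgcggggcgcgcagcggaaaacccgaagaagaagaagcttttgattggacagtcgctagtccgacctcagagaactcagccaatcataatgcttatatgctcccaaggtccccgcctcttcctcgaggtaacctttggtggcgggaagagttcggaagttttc
PCNA, chr20:5126623-5126872, minus strand: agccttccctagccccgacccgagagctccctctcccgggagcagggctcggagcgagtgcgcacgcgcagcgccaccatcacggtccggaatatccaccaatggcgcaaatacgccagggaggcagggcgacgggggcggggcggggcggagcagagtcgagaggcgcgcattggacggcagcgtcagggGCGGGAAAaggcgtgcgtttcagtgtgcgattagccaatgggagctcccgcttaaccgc
GINS2, chr16:85688955-85689204, minus strand: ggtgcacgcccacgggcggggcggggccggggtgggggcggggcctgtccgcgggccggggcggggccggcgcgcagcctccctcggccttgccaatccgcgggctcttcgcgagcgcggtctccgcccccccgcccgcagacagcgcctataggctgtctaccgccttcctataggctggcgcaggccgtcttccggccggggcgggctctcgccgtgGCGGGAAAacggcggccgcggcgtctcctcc
MCM7, chr7:100101398-100101647, minus strand: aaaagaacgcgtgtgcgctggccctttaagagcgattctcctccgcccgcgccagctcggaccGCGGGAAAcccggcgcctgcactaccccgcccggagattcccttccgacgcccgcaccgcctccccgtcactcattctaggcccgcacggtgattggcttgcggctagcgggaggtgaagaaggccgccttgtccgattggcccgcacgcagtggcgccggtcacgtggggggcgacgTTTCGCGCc
Of the 57 genes, 49 were matched in the promoter table. A match stood in 17 of those 49 promoters (34.7%), against 761 of all 27305 promoters in the table (2.79%). With the 50 bases after the start site included, the share was 46.9% of the replication genes and 3.33% of all promoters. The letters CCAAT on either strand, which can share letters with GCGCCAAA, were in 27 of the 49 promoters (55.1%) and in 33.0% of all. Among genes called lower with lactate in SW480, 7 of 20 matched promoters held E2F letters (35.0%), and among tested genes not called there 9 of 28 did (32.1%). The shares of the called and the other genes were not tested against each other. CCND1, CCNE2, GINS4, MCM4, MCM5, POLD3, RPA2 and RPA3 had no entry.

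Replication genes fell with lactate in SW480. Of the 56 tested, 23 fell and 0 rose at an edgeR adjusted p under 0.05 (quasi-likelihood test, Benjamini-Hochberg adjustment over all tested genes), where 5.59% of all tested genes fell and 6.83% rose. The fold change was negative for 53 of the 56, against 50.7% of all tested genes. Its median was -0.32 on the log2 scale, against -0.0061 over all tested genes. The 3 lactate libraries lay below the 3 controls without overlap for 36 of the 56, against 21.9% of all tested genes, and above them for 0, against 18.9%. At an unadjusted p under 0.05, 35 were lower and 0 higher, where 27.3% of all tested genes were either. No called gene changed by as much as 1 log2 unit. Summed over the 57 genes, a sum weighted toward abundant transcripts, SW480 controls stood at 3425, 2983 and 3274 CPM and lactate libraries at 2455, 2517 and 2788 CPM. Every lactate library was below every control. Single libraries moved the count of called genes. Leaving out SW480 control 1 gave 10, where 1.41% of all tested genes fell, and leaving out SW480 control 3 gave 15, where 3.01% fell. Leaving out lactate library 1 or 2 gave 13 in either case, where 3.97% and 1.52% of all tested genes fell. DLD1 control 2 does not enter the contrast, yet leaving it out gave 33, where 11.6% of all tested genes fell. In the same SW480 libraries the marker lists did not move one way. Of 9 tested epithelial markers, KRT8 and KRT18, which make up most of the sum, fell by 0.51 and 0.61 on the log2 scale, and KRT19 rose by 0.71. Of 4 tested fibroblast and endothelial markers, COL1A1 rose by 1.23, and DCN had -0.29 and was not called (edgeR adjusted p = 0.167), with its 3 lactate libraries below its controls. The part of these markers in the result was not tested. When each of the 12 libraries was left out in turn, 10 of the 23 genes were called in every fit: CDC6, ORC6, MCM3, MCM4, CDC45, GINS2, GINS3, PCNA, RPA2 and FEN1.

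**Figure D1:**
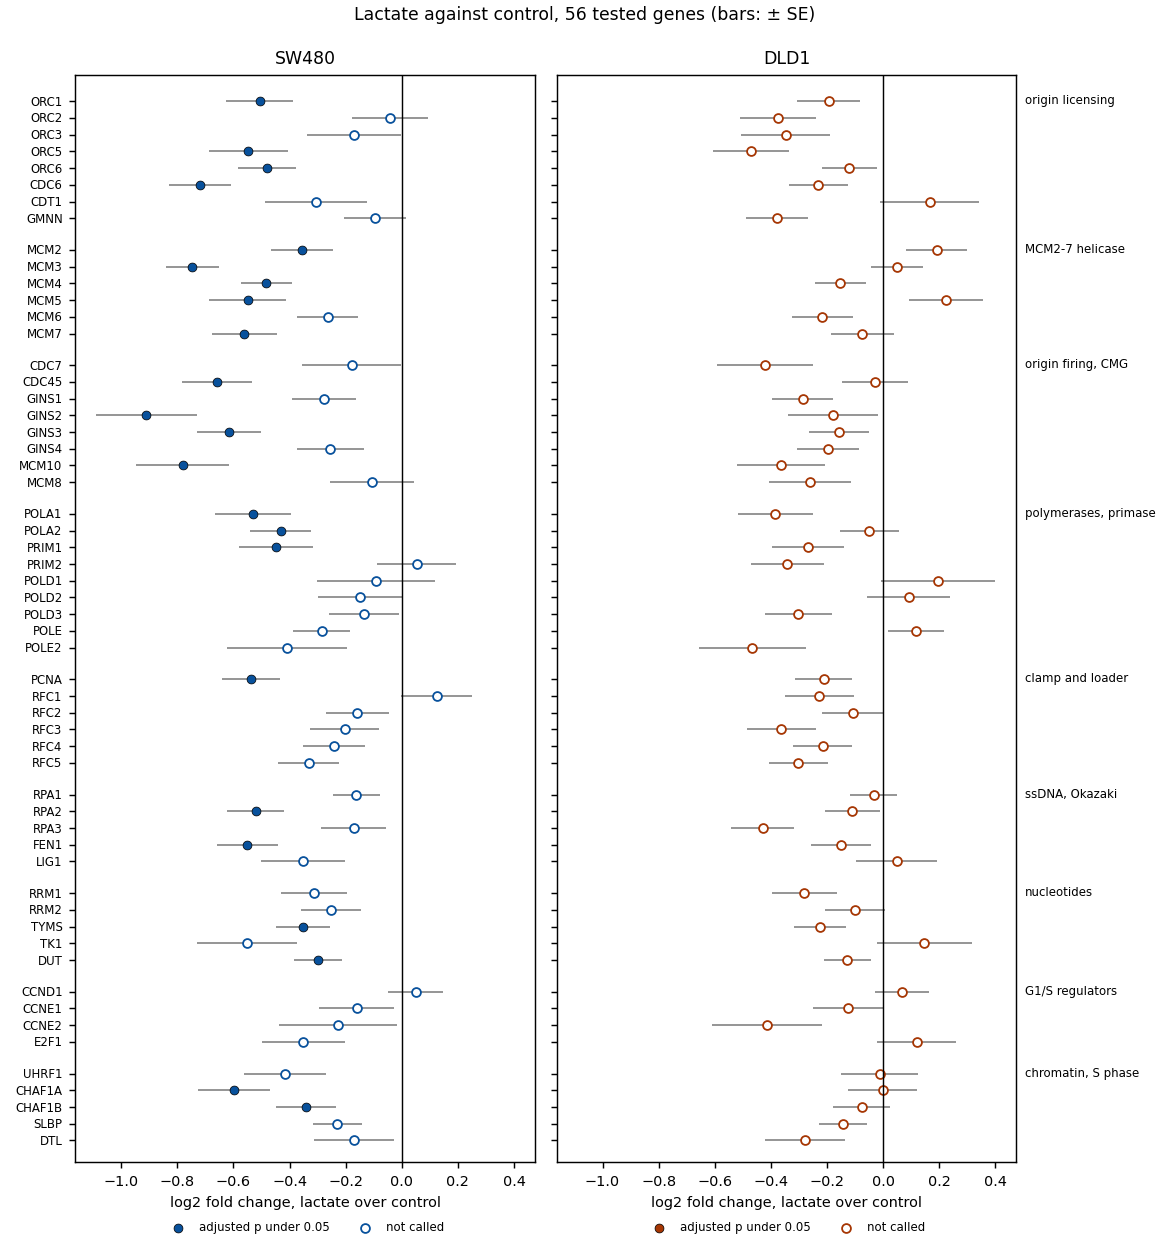
Log2 fold change of each of the 56 tested genes with lactate, with bars of 1 SE, in SW480 (left) and DLD1 (right), ordered by role on one shared scale. Filled points mark an edgeR adjusted p under 0.05; 23 genes are filled in SW480, all below 0, and 0 in DLD1.

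Among the 8 licensing genes tested, 4 fell in SW480 and 0 rose. CDC6 (chr17:40287879-40304657, GRCh38), the ATPase that loads the helicase onto origins, was at 40.0, 33.7 and 39.1 CPM in the controls and at 20.5, 22.8 and 24.1 CPM with lactate. Its lactate libraries all lay below its controls, with a log2 fold change of -0.72 ± 0.11 (SE) and an edgeR adjusted p of 0.00110. ORC6, a subunit of the origin recognition complex, stood at 25.0, 23.5 and 24.5 CPM in controls and 16.3, 17.2 and 17.9 CPM with lactate. That separation gave -0.48 ± 0.10 (SE, edgeR adjusted p = 0.00793). ORC1, the largest subunit of the same complex, was at 33.4, 26.3 and 29.7 CPM in controls and 17.7, 21.8 and 22.6 CPM with lactate. Again the groups were apart, with a log2 fold change of -0.51 ± 0.12 (SE, edgeR adjusted p = 0.0140), but ORC1 was not called without SW480 control 1 or SW480 lactate 1 (edgeR adjusted p from 0.0805 to 0.0957). ORC5 fell by 0.55 on the log2 scale, a call lost without SW480 control 1, SW480 lactate 1, SW480 lactate 2 or SW480 lactate 3 (edgeR adjusted p from 0.0545 to 0.122). The other subunits ORC2 and ORC3, the loader CDT1 and its inhibitor geminin (GMNN) had fold changes of -0.042, -0.17, -0.30 and -0.096 and did not pass the test.

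In the helicase itself, 5 of the 6 subunits were called lower and all 6 had no overlap between the groups. MCM3 (chr6:52264015-52284742, GRCh38), whose promoter is shown above, had the smallest p among the replication genes. It stood at 122, 100.4 and 113 CPM in SW480 controls and at 65.9, 61.5 and 69.5 CPM with lactate. Its highest lactate library was well under its lowest control, and the log2 fold change was -0.75 ± 0.095 (SE, edgeR adjusted p = 0.000281). MCM4 was at 133, 114 and 124 CPM in controls and 81.2, 88.0 and 92.7 CPM with lactate, a change of -0.48 ± 0.092 (SE, edgeR adjusted p = 0.00408). MCM7 was at 142, 113 and 124 CPM in controls and 86.7, 81.5 and 84.5 CPM with lactate. This change of -0.56 ± 0.11 (SE, edgeR adjusted p = 0.00628) was not called without SW480 control 1 (edgeR adjusted p = 0.0530). MCM5 stood at 56.8, 46.6 and 53.0 CPM in controls and 34.7, 35.7 and 34.7 CPM with lactate. It changed by -0.55 ± 0.14 (SE, edgeR adjusted p = 0.0185) and was not called without SW480 control 1, SW480 control 3, SW480 lactate 1, SW480 lactate 2 or SW480 lactate 3 (edgeR adjusted p from 0.0601 to 0.109). MCM2, at 63.5, 57.2 and 59.5 CPM in controls and 42.3, 45.9 and 50.5 CPM with lactate, passed the test narrowly, with -0.36 ± 0.11 (SE, edgeR adjusted p = 0.0495). Its call ended when 1 library was left out, namely any SW480 library, DLD1 control 1 or any DLD1 lactate library (edgeR adjusted p from 0.0632 to 0.205). MCM6 had a fold change of -0.26 and was not called (edgeR adjusted p = 0.134).

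Of 8 genes for origin firing and the active CMG helicase (CDC45, MCM and GINS), 4 fell in SW480 and 0 rose. GINS2 had the lowest fold change of the 56 genes. It was at 19.7, 12.1 and 16.7 CPM in SW480 controls and at 7.17, 7.75 and 10.7 CPM with lactate. With all lactate libraries under all controls, its log2 fold change was -0.91 ± 0.18 (SE, edgeR adjusted p = 0.00493). GINS3, another GINS subunit, stood at 20.1, 16.4 and 18.7 CPM in controls and 11.98, 11.4 and 12.2 CPM with lactate (-0.61 ± 0.11, SE, edgeR adjusted p = 0.00362). CDC45, which completes the CMG helicase, was at 26.8, 21.0 and 24.4 CPM in controls and 15.1, 12.9 and 17.2 CPM with lactate. It too was separated, with a log2 fold change of -0.66 ± 0.13 (SE, edgeR adjusted p = 0.00419). MCM10, needed to activate the assembled helicase, was at 30.5, 17.6 and 26.0 CPM in controls and 14.04, 13.5 and 15.1 CPM with lactate. Its change of -0.78 ± 0.17 (SE, edgeR adjusted p = 0.00799) was not called without SW480 control 1 or SW480 lactate 2 (edgeR adjusted p from 0.0516 to 0.0621). GINS1, GINS4, the kinase CDC7 and the recombination helicase MCM8 ranged from -0.28 to -0.11 and were not called.

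At the fork, 6 of 20 genes for synthesis and lagging-strand processing fell. Among 9 polymerase and primase genes, the 3 called lower belong to the polymerase alpha-primase complex, which lays down primers. Whether this complex differed from the other polymerases was not tested. POLA2, its accessory subunit, was at 38.6, 31.4 and 35.6 CPM in SW480 controls and 23.5, 25.5 and 28.3 CPM with lactate. That gave -0.43 ± 0.11 (SE, edgeR adjusted p = 0.0193), not called without SW480 control 1, SW480 control 3, SW480 lactate 1 or SW480 lactate 2 (edgeR adjusted p from 0.0692 to 0.121). The catalytic subunit POLA1 fell by 0.53 on the log2 scale, a call lost without SW480 control 1, SW480 control 3, SW480 lactate 1 or SW480 lactate 2 (edgeR adjusted p from 0.0643 to 0.109). The primase subunit PRIM1 fell by 0.45, a call lost without any SW480 library, DLD1 control 1 or any DLD1 lactate library (edgeR adjusted p from 0.0547 to 0.162), and the other subunit PRIM2 had 0.053 and was not called. The replicative polymerase subunits POLD1, POLD2, POLD3, POLE and POLE2 ranged from -0.41 to -0.092, and none was called. POLE had -0.29 without overlap between the groups. It was among the further genes called lower once the GC and length trend was removed, as described below (-0.40, edgeR adjusted p = 0.000136). POLA2 shares 35.1% of its exon bases with an annotated gene on the same strand, which strand would not tell apart. PRIM1 shares 21.6% with genes on the same and the opposite strand. The sources used here do not say whether counting used strand.

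PCNA (chr20:5114953-5126622, GRCh38), the sliding clamp, was the 1 called gene of the 6 for clamp and loader. It stood at 149.7, 122 and 127 CPM in SW480 controls and 88.7, 84.9 and 96.8 CPM with lactate. No lactate library reached a control, and the log2 fold change was -0.54 ± 0.10 (SE, edgeR adjusted p = 0.00444). The loader subunits RFC1 to RFC5 ranged from -0.33 (RFC5) to 0.12 (RFC1). RPA2, a subunit of the single-strand binding protein, was at 46.9, 39.2 and 46.6 CPM in controls and 30.4, 30.4 and 30.2 CPM with lactate (-0.52 ± 0.10, SE, edgeR adjusted p = 0.00456). FEN1, the nuclease that trims Okazaki fragments, was at 85.8, 73.6 and 74.3 CPM in controls and 51.2, 51.1 and 54.8 CPM with lactate. Its groups were also apart, with a log2 fold change of -0.55 ± 0.11 (SE, edgeR adjusted p = 0.00493). RPA1, RPA3 and the ligase LIG1 had -0.16, -0.17 and -0.35 and were not called. PCNA, RPA2 and FEN1 have 4, 3 and 1 annotated pseudogenes that could take or give reads.

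In the nucleotide supply, 2 of 5 genes fell. Thymidylate synthase (TYMS) fell by 0.35 on the log2 scale, a call lost without SW480 control 1, SW480 control 3, SW480 lactate 1, SW480 lactate 2 or SW480 lactate 3 (edgeR adjusted p from 0.107 to 0.161). The dUTPase DUT fell by 0.30, a call lost without any SW480 library, DLD1 control 1 or any DLD1 lactate library (edgeR adjusted p from 0.0510 to 0.179). Thymidine kinase (TK1) had a larger fold change of -0.55 ± 0.18 (SE) but missed the threshold (edgeR adjusted p = 0.0573), and the ribonucleotide reductase genes RRM1 and RRM2 had -0.31 and -0.25. DUT has 8 annotated pseudogenes, and 46.6% of the exon bases of TYMS are shared with genes on the opposite strand. Among 5 S-phase chromatin genes, both tested subunits of chromatin assembly factor fell. CHAF1A was at 39.2, 35.8 and 32.7 CPM in controls and 22.8, 22.8 and 24.4 CPM with lactate. It differed by -0.60 ± 0.13 (SE, edgeR adjusted p = 0.00799) and was not called without SW480 control 1 (edgeR adjusted p = 0.0599). CHAF1B fell by 0.34, a call lost without SW480 control 1, SW480 control 3, SW480 lactate 1, SW480 lactate 2, SW480 lactate 3, DLD1 control 1, DLD1 lactate 1, DLD1 lactate 2 or DLD1 lactate 3 (edgeR adjusted p from 0.0632 to 0.197). The methylation maintenance factor UHRF1, the histone mRNA binding protein SLBP and the ubiquitin ligase adaptor DTL had -0.42, -0.23 and -0.17 and were not called.

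None of the 4 tested G1/S regulators passed the test in SW480. Cyclin D1 (CCND1), which acts upstream of E2F release, stood at 222, 201 and 228 CPM in SW480 controls and 219, 210.0 and 235 CPM with lactate. The groups overlapped, with a log2 fold change of 0.049 ± 0.098 (SE, edgeR adjusted p = 0.796) that was -0.0019 without SW480 control 2. Cyclin E1 (CCNE1), which drives S-phase entry, was at 13.96, 11.8 and 11.1 CPM in controls and 9.42, 11.5 and 11.5 CPM with lactate, again with overlap (-0.16 ± 0.13, SE, edgeR adjusted p = 0.474). E2F1, the activating transcription factor, was at 27.3, 19.9 and 22.3 CPM in controls and 15.3, 17.9 and 20.6 CPM with lactate. Its -0.35 ± 0.15 (SE) was not called (edgeR adjusted p = 0.138), but was without DLD1 control 2 (edgeR adjusted p = 0.0378). Of the 4 regulators it alone had an unadjusted p under 0.05, and neither DESeq2 nor limma-voom called it. CCNE2 had -0.23 and was not called.

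**Figure D2:**
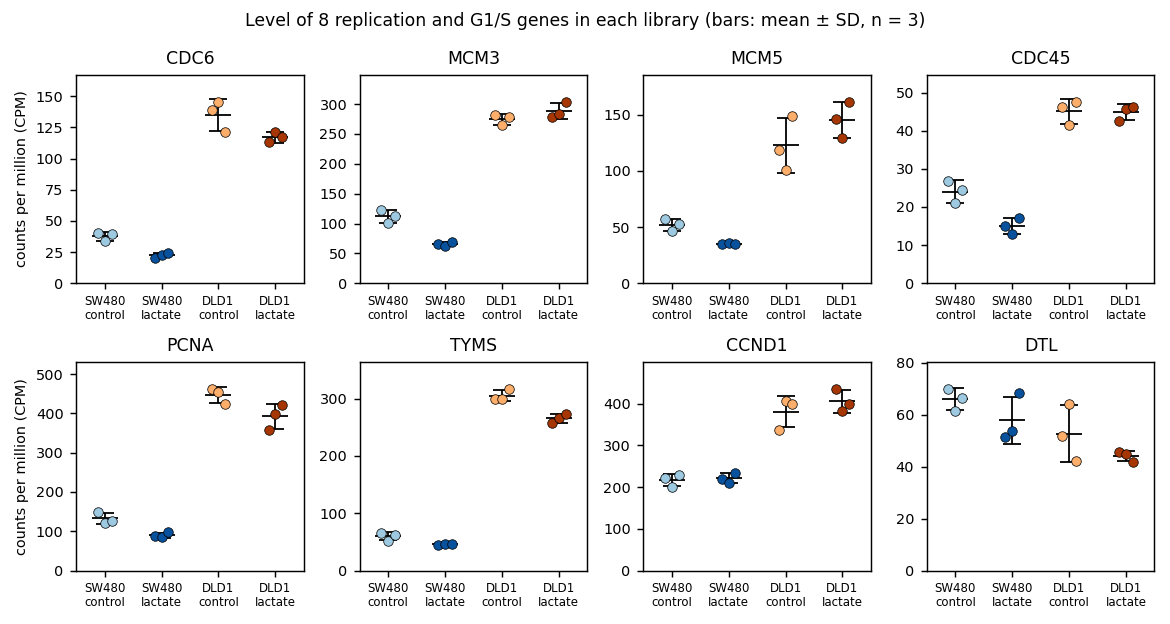
CPM of selected genes in each of the 12 libraries, by group, with the mean and 1 SD as bars (n = 3), each panel on its own scale from 0. The lactate points of MCM3 in SW480 lie under all its control points, and in DLD1 the 2 groups of MCM3 overlap.

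In DLD1, lactate changed none of the 56 genes at an edgeR adjusted p under 0.05, where 0.0455% of all tested genes fell and 0.336% rose. At an unadjusted p under 0.05, 17 were lower and 0 higher, where 18.5% of all tested genes were either. DESeq2 called 3 lower, where 1.96% of all tested genes were lower, and limma-voom 0, where 0.0512% were. The fold change was negative for 45 of the 56, against 46.3% of all tested genes, with a median of -0.17 against 0.017 over all tested genes. The groups did not overlap for 18 genes, all lower with lactate, against 8.06% of all tested genes that were lower so and 10.7% that were higher. The summed level was 7340, 7387 and 7313 CPM in DLD1 controls and 6754, 6886 and 7083 CPM with lactate, again without overlap. The result rested on DLD1 control 3: without it, 20 of the genes were lower and 2 higher, where 10.6% and 10.4% of all tested genes were lower and higher. Without control 2 the counts were 0 and 0, where 0.116% of all tested genes were lower and 0.707% higher. Without both controls 2 and 3, which leaves only DLD1 control 1, the median log2 fold change was -0.19.

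The 6 genes with the smallest p in DLD1 came from several roles, and none passed the adjusted threshold. RPA3, the small subunit of the single-strand binding protein, was at 53.4, 47.1 and 43.5 CPM in DLD1 controls and 34.0, 39.0 and 35.7 CPM with lactate. The groups were apart, with a log2 fold change of -0.43 ± 0.11 (SE, edgeR adjusted p = 0.122). ORC5 was at 52.0, 68.2 and 47.2 CPM in controls and 39.5, 41.0 and 42.1 CPM with lactate (-0.47 ± 0.13, SE, edgeR adjusted p = 0.135). Geminin (GMNN), which blocks relicensing, stood at 41.8, 49.5 and 39.2 CPM in controls and 34.4, 34.1 and 33.6 CPM with lactate (-0.38 ± 0.11, SE, edgeR adjusted p = 0.141). The lowest control of each of these genes was control 3. The loader subunit RFC3 was at 67.1, 84.7 and 62.4 CPM in controls and 55.3, 61.3 and 52.8 CPM with lactate (-0.36 ± 0.12, SE, edgeR adjusted p = 0.165). POLA1 was at 61.2, 79.8 and 54.9 CPM in controls and 50.6, 52.4 and 49.7 CPM with lactate (-0.38 ± 0.13, SE, edgeR adjusted p = 0.171). RFC5 stood at 123, 131 and 111 CPM in controls and 91.3, 101 and 108 CPM with lactate (-0.30 ± 0.11, SE, edgeR adjusted p = 0.172). All 6 were called lower without DLD1 control 3, with edgeR adjusted p from 0.00825 to 0.0209, and none was called without control 2. All 6 are of lower GC content, from 39.1% to 45.9%, and control 2 was the highest control of ORC5, GMNN, RFC3, POLA1 and RFC5. With the GC and length trend removed, as described below, only RPA3 and POLA1 of the 6 were called (edgeR adjusted p = 0.0152 and 0.0295). ORC5, RFC5, GMNN and RFC3 were not (edgeR adjusted p = 0.0673, 0.0736, 0.117 and 0.313).

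Fold changes in DLD1 were ordered by GC content. Over the 56 genes, as a description of points that share the same 6 libraries, the rank correlation of the DLD1 fold change with transcript GC content was 0.88, against 0.57 over all tested genes with a known GC content. In SW480 the values were -0.30 and 0.059. The fold change in DLD1 was negative for 28 of 28 genes of lower GC content (median -0.29) and for 17 of 28 of higher GC content (median -0.032). When the trend along GC content and transcript length was removed, all 56 fold changes were negative, against 54.3% of all tested genes. The median stayed at -0.17, and the correlation with GC content was -0.11. Over all tested genes with a known GC content the correction removes such a trend by design, to 0.0018 here. It would also take out a lactate effect that runs with GC content. In that fit 4 genes were called lower, MCM7 (-0.33), POLA1 (-0.29), RPA3 (-0.37) and FEN1 (-0.29), where 2.17% of all tested genes were lower and 1.53% higher. With DLD1 control 3 also left out the count was 14, where 5.55% of all tested genes were lower. With control 2 left out instead it was 2, where 1.32% of all tested genes were lower. In SW480 the same correction gave 32 genes called lower, including all 23 called without it, where 12.7% of all tested genes were lower and 15.0% higher. The genes added were POLE, TK1, LIG1, CDT1, UHRF1, RFC5, RRM1, MCM6 and RRM2 (edgeR adjusted p from 0.000136 to 0.0258). There 52 of the 56 fold changes were negative, against 48.3% of all tested genes.

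**Figure D3:**
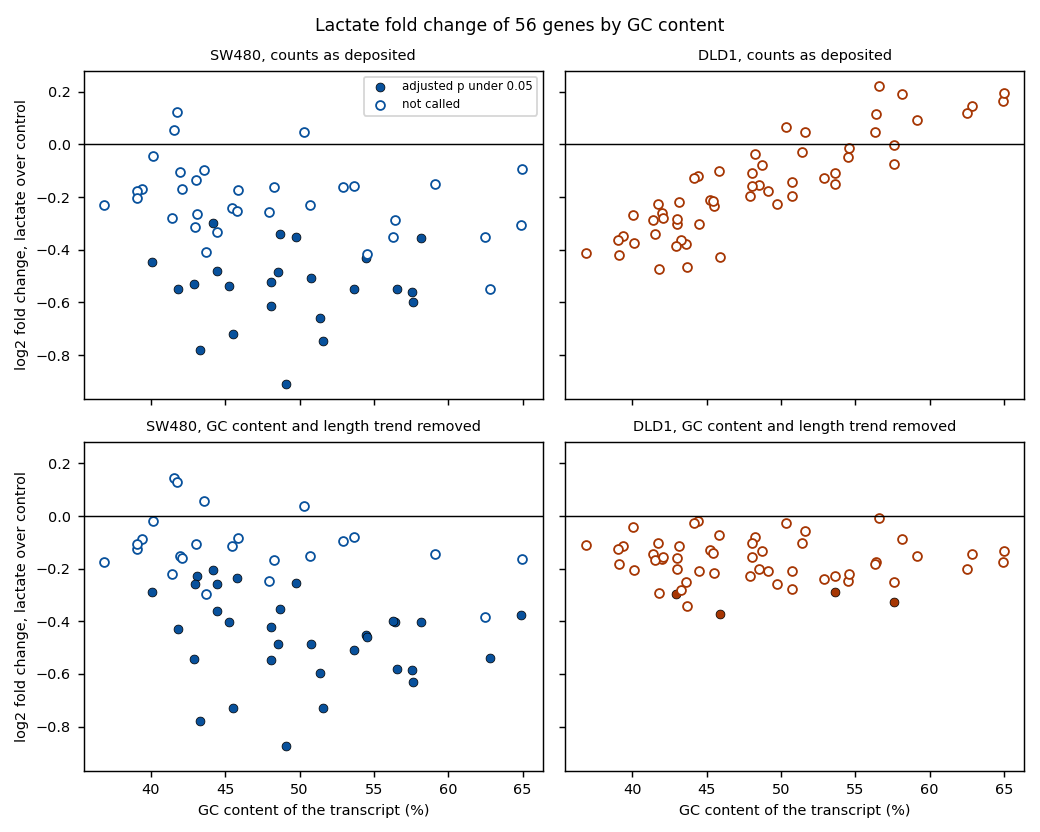
Log2 fold change with lactate against the GC content of the transcript (percent) for the 56 tested genes, in each line, as deposited and after the trend along GC content and length was removed. In DLD1 the points rise with GC content as deposited (rank correlation 0.88) and not after the correction (-0.11). The correction removes such a trend over all tested genes by design.

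MCM2, CCND1 and E2F1 had small DLD1 fold changes whose sign depended on the correction. MCM2 was at 198, 174 and 232 CPM in DLD1 controls and 235, 218 and 247 CPM with lactate (0.19 ± 0.11, SE), and its fold change was -0.086 once the GC trend was removed. Without DLD1 control 3 MCM2 was called higher, at 0.30 (edgeR adjusted p = 0.0475). PCNA was at 462, 454 and 424 CPM in controls and 358, 397 and 422 CPM with lactate, without overlap, but was not called (-0.21 ± 0.10, SE, edgeR adjusted p = 0.279). CCND1 stood at 338, 405 and 398 CPM in controls and 435, 382 and 399 CPM with lactate (0.068 ± 0.097, SE), or -0.028 with the trend removed. Neither cyclin D1 value passed the test. CCNE1 was at 20.4, 20.9 and 23.1 CPM in controls and 18.3, 20.8 and 20.8 CPM with lactate (-0.13 ± 0.12, SE). E2F1 was at 34.9, 28.5 and 39.4 CPM in controls and 39.7, 36.1 and 37.9 CPM with lactate (0.12 ± 0.14, SE), or -0.20 with the trend removed. The controls of E2F1 and MCM2 spread more widely than their lactate libraries.

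The lactate effects of the lines were then compared with each other, as DLD1 minus SW480. Only MCM3 differed at an edgeR adjusted p under 0.05, where 0.324% of all tested genes were higher and 0.404% lower in this difference. Its fold change was -0.75 in SW480 and 0.048 in DLD1, where it stood at 281, 264 and 278 CPM in controls and 278, 284 and 304 CPM with lactate. The difference was 0.79 ± 0.13 (SE, edgeR adjusted p = 0.0168), and 0.67 with the GC trend removed (adjusted p = 0.000328). It was not called without SW480 control 1, SW480 control 3, SW480 lactate 2, DLD1 lactate 2 or DLD1 lactate 3 (edgeR adjusted p from 0.0522 to 0.0889). The next 5 by p did not pass in the counts as deposited. For MCM5 the difference was 0.77 ± 0.19 (SE, edgeR adjusted p = 0.0710), with DLD1 levels of 119, 101 and 149 CPM in controls and 146, 129.7 and 162 CPM with lactate. CDC45 differed by 0.63 ± 0.17 (SE, edgeR adjusted p = 0.102), with DLD1 levels of 46.2, 41.5 and 47.6 CPM and 42.6, 45.8 and 46.3 CPM. MCM2 had 0.55 ± 0.15 (SE, edgeR adjusted p = 0.110). Without DLD1 control 3, these differences passed, at 0.93, 0.66 and 0.65 (edgeR adjusted p = 0.00810, 0.0335 and 0.0151), and without control 2 at 0.65, 0.58 and 0.46 (edgeR adjusted p = 0.0211, 0.0462 and 0.04995). CHAF1A had 0.60 ± 0.18 (SE, edgeR adjusted p = 0.125), with DLD1 levels of 68.0, 64.5 and 90.7 CPM and 73.6, 72.1 and 80.6 CPM. It passed without DLD1 control 3, at 0.75 (edgeR adjusted p = 0.0110). CDC6 had 0.49 ± 0.15 (SE, edgeR adjusted p = 0.141), with DLD1 levels of 139, 145 and 121 CPM and 113, 121 and 117 CPM. It passed without DLD1 control 2, at 0.55 (edgeR adjusted p = 0.0290). With the GC trend removed, 6 genes were called in this difference, all positive, where 2.63% of all tested genes were higher and 5.70% lower. Beside MCM3 they were MCM5 (0.58, adjusted p = 0.00161), CDC6 (0.52, adjusted p = 0.00449), CDC45 (0.49, adjusted p = 0.0215), CHAF1A (0.38, adjusted p = 0.0411) and GINS2 (0.67, adjusted p = 0.0443). In the counts as deposited, the difference was negative for 14 of the 56, against 48.8% of all tested genes. At an unadjusted p under 0.05, 18 were positive and 0 negative, where 16.8% of all tested genes were either. The difference was ordered by GC content too. It was negative for 14 of the 28 genes of lower GC content (median 0.0081) and 0 of the 28 of higher GC content (median 0.40). Its rank correlation with GC content was 0.72, against 0.34 over all tested genes with a known GC content. Over the 56 genes it was 0.39 with the trend removed. DESeq2 called 5, all positive, where 1.61% of all tested genes were higher and 2.48% lower. Without DLD1 control 2 edgeR called 5, all positive, where 1.47% of all tested genes were higher and 1.82% lower. Without control 3 it called 8, all positive, where 3.95% were higher and 4.4% lower.

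The untreated lines differed in nearly all of these genes. DLD1 controls were higher than SW480 controls for 53 of the 56 genes and lower for 1, where 33.6% of all tested genes were higher and 37.3% lower. The median difference was 0.92 on the log2 scale, against -0.050 over all tested genes, and 25 of the called genes differed by at least 1 log2 unit. The groups did not overlap for 52 genes, all higher in DLD1, where 35.1% of all tested genes were higher and 35.5% lower without overlap. These controls are the same libraries that enter the lactate comparisons. The lines also differ in the epithelial markers given above, whose part in the result was not tested.

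**Figure D4:**
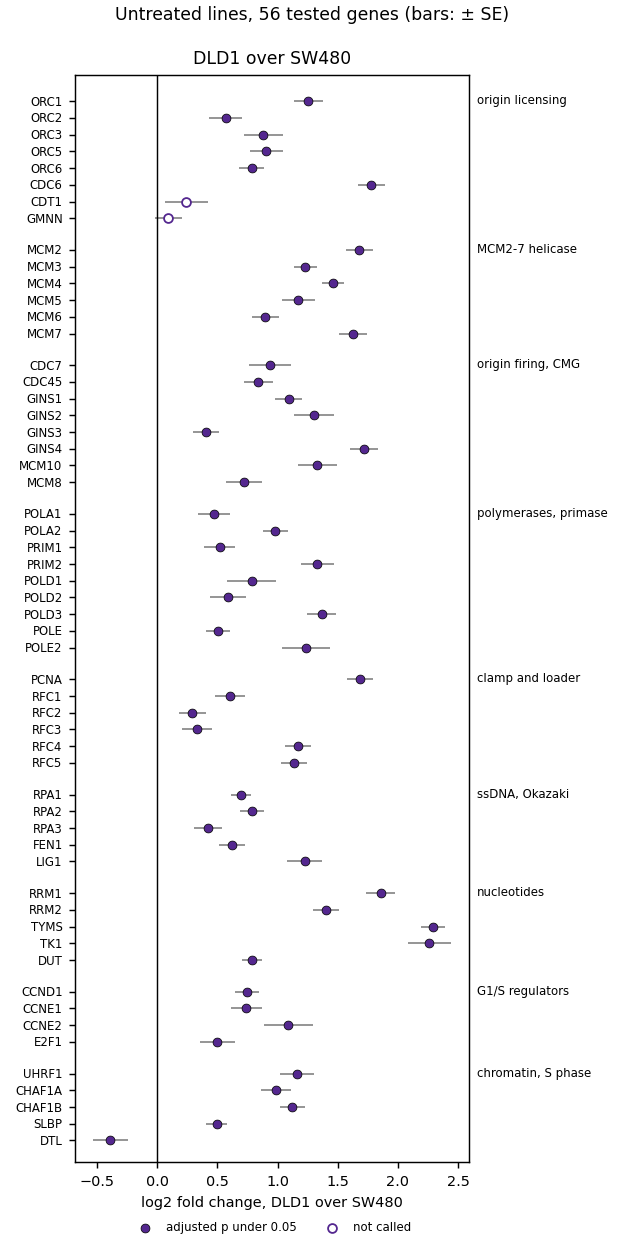
Log2 difference of DLD1 control over SW480 control for the 56 tested genes, with bars of 1 SE, ordered by role. Filled points mark an edgeR adjusted p under 0.05; 53 lie above 0 and DTL lies below at -0.39.

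The 3 widest gaps between the untreated lines were in nucleotide synthesis genes. TYMS was at 64.7, 51.5 and 62.4 CPM in SW480 controls and 299.5, 299 and 317 CPM in DLD1 controls (2.29 ± 0.099, SE, edgeR adjusted p = 1.94e-11). TK1 differed by 2.26 ± 0.18 (SE). RRM1, the large subunit of ribonucleotide reductase, was at 148, 127 and 140.5 CPM in SW480 and 528, 591 and 449 CPM in DLD1 (1.86 ± 0.12, SE, edgeR adjusted p = 2.21e-09). Every DLD1 control of these genes was above every SW480 control. CDC6 was at 40.0, 33.7 and 39.1 CPM in SW480 and 139, 145 and 121 CPM in DLD1 (1.78 ± 0.11, SE, edgeR adjusted p = 1.34e-09). Among helicase genes, MCM2 was at 63.5, 57.2 and 59.5 and 198, 174 and 232 CPM in the same order (1.68 ± 0.11, SE, edgeR adjusted p = 3.27e-09). MCM4 was at 133, 114 and 124 and 364, 368 and 336 CPM (1.46 ± 0.092, SE, edgeR adjusted p = 1.83e-09). All 6 MCM2 to MCM7 genes were higher in DLD1, by 0.90 (MCM6) to 1.68 (MCM2). MCM7 was at 142, 113 and 124 and 429, 345 and 452 CPM (1.63 ± 0.12, SE, edgeR adjusted p = 7.15e-09). GINS4, a GINS subunit, was at 19.2, 17.9 and 20.7 and 69.1, 66.7 and 62.9 CPM (1.71 ± 0.12, SE, edgeR adjusted p = 4.52e-09). PCNA was at 149.7, 122 and 127 and 462, 454 and 424 CPM (1.68 ± 0.10, SE, edgeR adjusted p = 1.50e-09).

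A few genes departed from that pattern. DTL, the adaptor through which CDT1 is degraded, was at 69.8, 61.5 and 66.4 CPM in SW480 controls and 51.6, 64.2 and 42.1 CPM in DLD1 controls, and the groups overlapped. It was called lower in DLD1, with a log2 difference of -0.39 ± 0.14 (SE, edgeR adjusted p = 0.0246), a call lost without SW480 control 1, SW480 control 3, DLD1 control 1 or DLD1 control 3 (edgeR adjusted p from 0.0595 to 0.0949). CDT1 and its inhibitor GMNN were the 2 genes not called, with differences of 0.24 ± 0.18 and 0.091 ± 0.11 (SE). The loader subunits RFC2 and RFC3 differed least among the genes called higher, by 0.29 and 0.33. The regulators CCND1, CCNE1, CCNE2 and E2F1 were higher in DLD1 by 0.74, 0.74, 1.09 and 0.50. With the GC trend removed, 53 genes were again called higher and 1 lower, where 37.9% and 40.0% of all tested genes were, but they were not all the same genes. In that fit E2F1 was at 0.27 and was not called (adjusted p = 0.0704), GMNN was called higher at 0.34 (adjusted p = 0.00193), and CDT1 was at -0.024 and not called.

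Other genes of the pathway and of later cell cycle phases were read the same way. A further list of 49 pathway genes had 9 that fell and 0 that rose with lactate in SW480 (median -0.22), where 5.59% of all tested genes fell and 6.83% rose. Their fold change was negative for 35 and positive for 14, where 50.7% of all tested genes were negative. At an unadjusted p under 0.05, 15 were lower and 2 higher in SW480, where 27.3% of all tested genes were either. Without overlap, 22 were lower and 5 higher, where 21.9% and 18.9% of all tested genes were. In DLD1 0 were called (median -0.22), where 0.0455% of all tested genes fell and 0.336% rose. At an unadjusted p under 0.05, 16 were lower and 1 higher in DLD1, where 18.5% of all tested genes were either. In untreated DLD1 36 were higher and 7 lower, where 33.6% and 37.3% of all tested genes were. TIMELESS, a fork protection factor, was at 89.9, 77.4 and 86.1 CPM in SW480 controls and 58.4, 54.8 and 59.4 CPM with lactate (-0.53 ± 0.092, SE, edgeR adjusted p = 0.00231). Cyclin A2 (CCNA2), which acts in S phase and G2, was at 85.1, 73.9 and 83.7 CPM and 52.0, 49.6 and 53.2 CPM (-0.63 ± 0.11, SE, edgeR adjusted p = 0.00231). POLE3, a small subunit of polymerase epsilon, was at 160.2, 133 and 140.0 CPM and 105, 97.8 and 104 CPM (-0.47 ± 0.093, SE, edgeR adjusted p = 0.00496). In these genes no lactate library reached a control. SUPT16H, a subunit of the histone chaperone FACT, was at 219, 192 and 211 CPM and 147, 153 and 161 CPM (-0.41 ± 0.11, SE, edgeR adjusted p = 0.0202). Of 30 G2/M and mitosis genes, 24 fell and 0 rose in SW480 (median -0.54), against the same 5.59% and 6.83% of all tested genes. In DLD1 0 were called (median -0.29), against the same 0.0455% and 0.336% of all tested genes. At an unadjusted p under 0.05, 17 were lower and 0 higher in DLD1, against the same 18.5% that were either. All 30 were higher in untreated DLD1, against 33.6% of all tested genes. Their summed level was 3009 ± 301 CPM in SW480 controls and 2079 ± 169 CPM with lactate, and 7242 ± 642 CPM and 6030 ± 38.5 CPM in DLD1 (SD, n = 3). The sum over the 57 replication genes was 3228 ± 225 CPM and 2587 ± 177 CPM in SW480, and 7347 ± 37.9 CPM and 6908 ± 166 CPM in DLD1 (SD, n = 3).

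**Figure D5:**
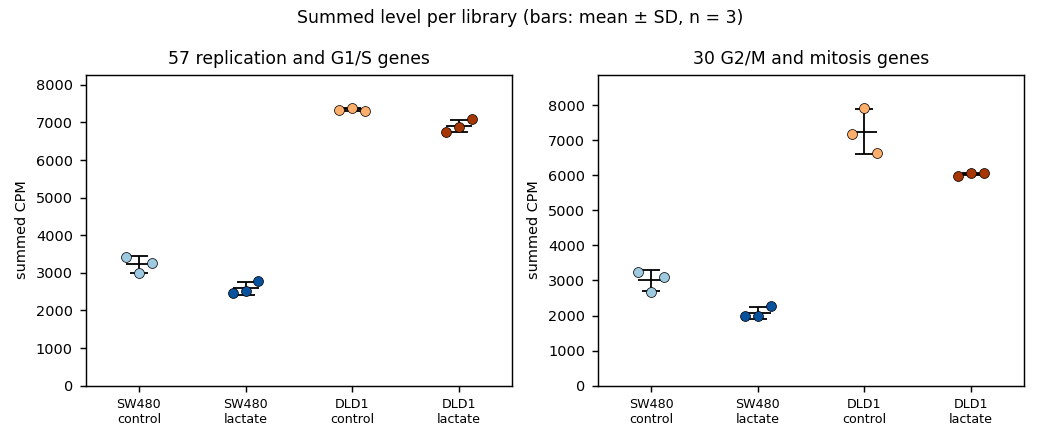
Summed CPM of the 57 replication and G1/S genes (left) and of 30 G2/M and mitosis genes (right) in each library, with the mean and 1 SD as bars (n = 3). In both panels the SW480 lactate libraries lie below the SW480 controls, and the DLD1 libraries lie above all SW480 libraries.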

How the data were processed

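Total RNA of 12 libraries (2 lines, 2 treatments, 3 libraries each) was sequenced. Alignment used HISAT2 with GRCh38, per the submitters' processing notes; the counting program, its annotation and its use of strand are not stated there. The authors deposited whole-number read counts per gene. Counts were tested with edgeR 4.0.16 in R 4.3.3 (TMM, filterByExpr, robust quasi-likelihood fit, 1 mean per group over all libraries), two-sided, with Benjamini-Hochberg adjustment over 17572 genes. SE is the fold change divided by the root of F. GC content, transcript length and shared exons came from GENCODE transcripts, and coordinates and promoters from RefSeq (GRCh38.p14). Of tested genes, 87.7% had a GC content. The GC and length trend was removed per library with splines of 5 degrees of freedom. Alternatives used DESeq2 1.42.0, limma 3.58.1, other scalings and filters, a replicate block, each line alone, and each library left out. Values in every library are printed for the up to 16 (SW480), 6 (DLD1), 6 (difference) and 8 (untreated lines) genes of smallest p, and for 5 set genes. Further pathway genes are the 4 of smallest p in SW480. Promoters follow the order of p in SW480. The genes and lists were chosen with earlier results of these data known. Lowest counts per library among the tested genes were 86 (POLE2), 115 (GINS2) and 145 (CCNE1), where counting error adds to the spread between libraries.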

Additional observations from a re-analysis of the deposited data

Results flagged for a closer look

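MCM3, a subunit of the replicative helicase, was the 1 gene of the 56 called for a difference in lactate effect between the lines by edgeR on the counts as deposited. DESeq2 called 5, where 1.61% of all tested genes were higher in the difference, and edgeR called 6 with the GC trend removed (2.63%). By edgeR there were 5 without DLD1 control 2 (1.47%) and 8 without DLD1 control 3 (3.95%). For MCM3 the log2 fold change was -0.75 ± 0.095 (SE) in SW480 and 0.048 ± 0.093 (SE) in DLD1, with n = 3 libraries per group. The difference was 0.79 by edgeR's test of the difference itself (adjusted p = 0.0168). All 3 SW480 lactate libraries were below all 3 SW480 controls, and the DLD1 groups overlapped. The difference was not called without SW480 control 1, SW480 control 3, SW480 lactate 2, DLD1 lactate 2 or DLD1 lactate 3 (edgeR adjusted p from 0.0522 to 0.0889). No group of libraries could be screened for single values far from the rest, since each holds 3 libraries.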

How the results depend on the processing

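When 1 library was left out, the count of genes called lower in SW480 ranged from 10 to 33. There 1.41% to 11.6% of all tested genes were lower. The count was 20 to 27 with median-of-ratios or upper quartile scaling, other filters, DESeq2, limma-voom or the replicate block. In those fits 3.32% to 7.08% of all tested genes were lower. It was 34 with each line fitted alone (14.2% of all tested genes) and 32 with the GC and length trend removed (12.7%). With the trend removed and DLD1 control 2 left out it was 35 (14.4%). In DLD1 the count called lower was 1 without a filter (0.827% of all tested genes), 3 with DESeq2 (1.96%) and 4 with the trend removed (2.17%). With the trend removed and control 2 or control 3 left out, it was 2 (1.32%) and 14 (5.55%). With 1 library left out it ranged from 0 to 20, where 0.00553% to 10.6% of all tested genes were lower. The count called higher then ranged from 0 to 2, where 0.0111% to 10.4% of all tested genes were higher. For the difference between the lines, the count called positive was 4 without a filter (1.28% of all tested genes) and 5 with DESeq2 (1.61%). It was 2 with the replicate block (0.774%) and 6 with the trend removed (2.63%). With the trend removed and control 2 or 3 left out, it was 9 (3.25%) and 5 (2.7%). With 1 library left out it was 0 to 8, where 0.0111% to 3.95% of all tested genes were higher in the difference. Between the untreated lines, the count lower in DLD1 was 0 to 1 with 1 library left out, where 34.4% to 38.7% of all tested genes were lower. The causes of these moves were not tested. Small fold changes turned sign. With the trend removed, the DLD1 values were -0.086 for MCM2, -0.028 for CCND1 and -0.20 for E2F1. With control 2 also left out they were -0.037 for MCM2 and -0.11 for E2F1, and with control 3 also left out -0.12 for MCM2, -0.029 for CCND1 and -0.30 for E2F1. With 1 library left out, CCND1 ranged from -0.0019 to 0.090 in SW480 and from -0.0049 to 0.12 in DLD1. With the replicate number as a block, 23 genes were called lower in SW480 (21 of the same genes) and 0 in DLD1. There 6.08% and 0.0797% of all tested genes were lower. Same-numbered libraries had correlations of their deviations of 0.070, 0.068 and 0.14 in SW480 and -0.17, 0.19 and 0.27 in DLD1. Libraries of unlike number ranged from -0.28 (DLD1 control 3 with lactate 2) to 0.093 (SW480 control 2 with lactate 1). Deviations within a group of 3 are not independent, so these values do not settle whether numbers pair the libraries. The labels do not say that they pair, and they were not taken to. The alternatives without both DLD1 controls, those that joined the GC trend with a left-out control, and the longer promoter window were chosen after seeing the data.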
